A study of Mus musculus with 2 samples.

Results

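The Ifi200 family, also called the HIN-200 or PYHIN family, was examined in immune cells of mouse tumors through 10 of its genes, Ifi203, Ifi204, Ifi205, Ifi207, Ifi208, Ifi209, Ifi211, Ifi213, Ifi214 and Mndal. The genes were chosen by symbol, and all 10 were found among the 32285 mouse features measured and had at least 1 unique molecular identifier (UMI, the tag that marks a single captured RNA molecule) in each library. Female nude mice, 4 weeks old at the start, bore tumors of the human osteosarcoma line 143B. The mice received either 10 mg/kg human IgG1 as control IgG or 10 mg/kg of an anti-CD3L1 antibody. Cells carrying CD45, a surface protein of immune cells, were taken from the tumors with magnetic beads and put through 10x Genomics droplet sequencing. Each treatment gave 1 library that pooled 3 tumors, and cells could not be traced back to a tumor. No test between treatments could therefore be made, and the 95% intervals in the text cover counting error alone. Nude mice lack a working thymus and so most T cells, and Cd3e, a T cell gene, had 0.327 UMIs per 1000000 UMIs (CPM) under control IgG and 0.470 CPM under anti-CD3L1.

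Most proteins of this family carry a HIN domain, which binds DNA, and most carry a pyrin domain, through which they meet other proteins. Family members are induced by interferon, and some of them detect DNA in the cytosol or nucleus: Ifi204 is regarded as a mouse counterpart of human IFI16 and signals through STING, while the related Aim2 builds an inflammasome. The genes lie side by side in a cluster on mouse chromosome 1 that has grown by duplication, so that several are near copies of each other, and for many of them, including Ifi208, Ifi209, Ifi213 and Ifi214, little is known of the function.

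The control IgG library gave 8557 cells with a median of 5526 UMIs and the anti-CD3L1 library 11269 cells with a median of 8267 UMIs, and 26 barcodes were found in both. Cells were placed into classes by markers that include none of the family. The libraries differed in makeup: 4438 neutrophils, 1214 monocytes, 508 macrophages and 167 natural killer (NK) cells were found under control IgG, and 457, 1850, 3725 and 916 under anti-CD3L1. The control IgG library carried the neutrophil gene S100a8 in every class, at 5443 CPM in its monocytes against 611 CPM in those of the anti-CD3L1 library. In the anti-CD3L1 library the neutrophils were shallow, with a median of 2099 UMIs against 4302 under control IgG. Innate lymphoid, dendritic and B cell classes held at least 50 cells only in the anti-CD3L1 library.

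The promoters of the family fell into sets of near copies, and these are shown first because the results below refer back to them. RefSeq promoters on build GRCm38.p6, from 250 bases before to 50 bases after the start of transcription, were at hand for 9 of the 10 members, all but Ifi204. The printed stretches of 100 bases run 5′ to 3′ along the gene and hold in capitals 10 bases made of 2 copies of GAAA separated by any 2 bases, the core of the element through which interferon-activated factors bind. Ifi207, Ifi211 and Ifi205 differ from each other at 10 to 13 of these 100 bases.
Ifi207, chr1:173741801-173741900, minus strand: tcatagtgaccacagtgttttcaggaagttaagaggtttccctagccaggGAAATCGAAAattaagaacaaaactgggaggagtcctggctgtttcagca
Ifi211, chr1:173913034-173913133, minus strand: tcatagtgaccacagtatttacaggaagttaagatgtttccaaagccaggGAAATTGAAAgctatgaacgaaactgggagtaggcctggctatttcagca
Ifi205, chr1:174031840-174031939, minus strand: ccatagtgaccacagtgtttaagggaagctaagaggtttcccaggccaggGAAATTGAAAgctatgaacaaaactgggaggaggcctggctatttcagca
Ifi203 and Mndal have the same 100 bases here, at their own places in the cluster, and for each of these genes RefSeq lists 2 starts.
Ifi203, chr1:173942478-173942577, minus strand: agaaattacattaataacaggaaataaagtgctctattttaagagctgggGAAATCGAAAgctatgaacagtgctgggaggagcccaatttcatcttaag
Mndal, chr1:173880174-173880273, minus strand: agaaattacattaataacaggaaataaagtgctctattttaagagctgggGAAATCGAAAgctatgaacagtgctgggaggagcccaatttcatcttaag
The promoters of Ifi214 and Ifi209 align over 300 bases with 95.7% identity. The capitals of Ifi209 mark the 10 bases that align with the element of Ifi214, from which they differ by G1T, counted from 1 at the 5′ end of the element with the base of Ifi214 first.
Ifi214, chr1:173535987-173536086, minus strand: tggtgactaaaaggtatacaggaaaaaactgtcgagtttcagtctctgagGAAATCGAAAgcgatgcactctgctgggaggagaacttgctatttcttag
Ifi209, chr1:173630730-173630829, plus strand: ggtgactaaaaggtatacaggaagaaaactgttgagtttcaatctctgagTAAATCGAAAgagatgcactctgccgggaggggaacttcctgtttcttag
Ifi208 and Ifi213 form the last pair and differ at 2 of the 100 bases.
Ifi208, chr1:173673557-173673656, plus strand: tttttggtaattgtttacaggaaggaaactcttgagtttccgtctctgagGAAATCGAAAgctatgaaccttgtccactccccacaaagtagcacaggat
Ifi213, chr1:173599296-173599395, minus strand: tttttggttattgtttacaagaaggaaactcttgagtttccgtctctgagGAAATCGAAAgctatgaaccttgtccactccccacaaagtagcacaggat

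The paired GAAA element, searched on both strands, was present in a promoter of 8 of the 9 members, against 3.44% of the 32841 mouse promoters of the same length. In Ifi207, Ifi211, Ifi203 and Mndal it began 35 to 41 bases upstream of the nearest listed start, and in Ifi208, Ifi213 and Ifi214 58 to 79 bases upstream. Ifi205 held it 134 bases upstream and again downstream of its listed start. The second Mndal promoter also held a match, 54 bases upstream, and the first Ifi203 promoter held none. The count above is by member and the share by promoter, and promoters that are near copies are not separate cases. A GAS element, TTCNNNGAA, was found in none of the 11 promoters of members and in 8.30% of all promoters. For so few promoters, none is near that share. A match is a description of the letters and not proof of a bound site.

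Near copies can also share reads. Of the 90-base windows in the last 500 bases of the annotated coding transcripts, 59.4% of those of Ifi205 and of Ifi211 and 58.6% of those of Ifi209 and of Ifi214 occur in another gene as well, with Ifi205 sharing with Ifi211 and Mndal, and Ifi209 with Ifi214. None of the windows of Ifi203, Ifi204 or Ifi207 in these last 500 bases were shared, and for Mndal, Ifi208 and Ifi213 the shares were 4.25%, 1.82% and 7.54%. Over whole transcripts, 18.1% of the windows of Ifi204, 5.00% of those of Ifi203 and 1.47% of those of Ifi207 were shared. A read inside a shared window cannot be given to a single gene, so the levels of Ifi205, Ifi211, Ifi209 and Ifi214 are less certain than the others, and levels are compared below within a gene and not between genes.

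Among monocytes, macrophages, NK cells and neutrophils, the family was highest in monocytes and macrophages. The summed level of the 10 members was 1530.2 CPM in monocytes of the control IgG library (interval 1511 to 1549) and 1892 CPM in those of the anti-CD3L1 library (1870.4 to 1913). In macrophages the sum was 1266 CPM (1241 to 1292) and 1355 CPM (1344 to 1367). NK cells stood at 344 CPM (319 to 369) and 375 CPM (363 to 388), and neutrophils at 21.8 CPM (19.9 to 23.9) and 134 CPM (113 to 158). The order monocyte, macrophage, NK cell, neutrophil was the same in both libraries with the marker gates, and none of these intervals overlapped within a library. With neutrophils taken from clusters of cells, no member measured was 2-fold lower in them than in monocytes under anti-CD3L1. The place of neutrophils in that library therefore depends on the gate. Cells without a class held 434 CPM of the members under control IgG (425 to 444). Under anti-CD3L1 they held 1341 CPM (1326 to 1356), near the macrophage level. RNA in barcodes too poor in UMIs to be cells, which stands for free RNA, held 522 CPM and 1051 CPM of the members.

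**Figure D1:**
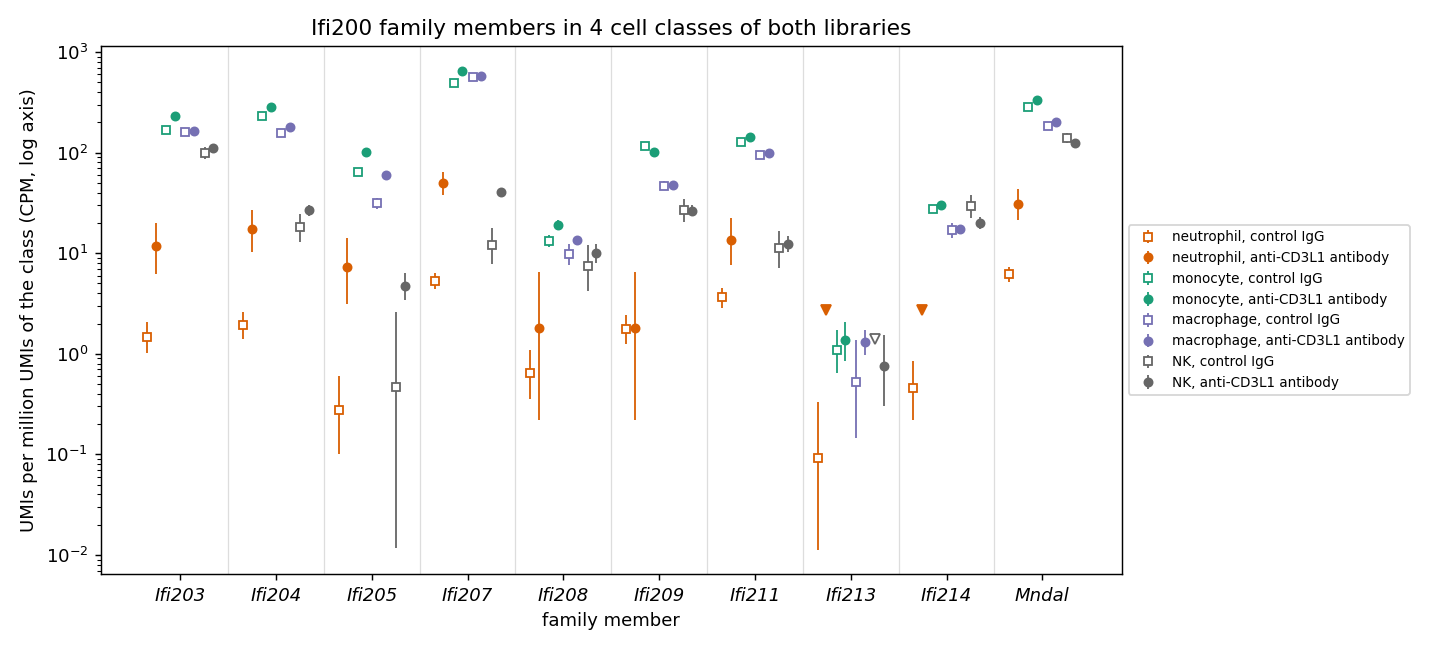
Level of each family member (x axis) in CPM on a log axis, in neutrophils, monocytes, macrophages and NK cells of the control IgG library (open squares) and the anti-CD3L1 library (filled circles), with exact Poisson 95% intervals as bars. Triangles mark the limit of 3 counts where no UMI was found, as for Ifi213 and Ifi214 in anti-CD3L1 neutrophils. Monocytes and macrophages lie above NK cells for most members, Ifi214 excepted, and neutrophils lie lowest for most.

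Most members were lower in macrophages than in monocytes, between 0.409 and 0.944 times the monocyte level under control IgG and between 0.468 and 0.878 times under anti-CD3L1, with Ifi207 under control IgG the exception and Ifi213, with its few UMIs, set aside. The interval of Ifi203 under control IgG, 0.881 to 1.01, included 1. Ifi204, the STING-linked DNA sensor, was at 231 CPM in control IgG monocytes and 281 CPM in anti-CD3L1 monocytes, and at 158 and 179 CPM in macrophages. Ifi207 was at 497 and 650.2 CPM in monocytes and at 567 and 571 CPM in macrophages. Its macrophage level was 1.14 times the monocyte level under control IgG (interval 1.099 to 1.18) and 0.878 times under anti-CD3L1 (0.858 to 0.899), so that the order of these classes for Ifi207 turned between the libraries. Mndal, which is named for its likeness to a human myeloid nuclear antigen, was at 286 and 334 CPM in monocytes against 182 and 203 CPM in macrophages.

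Counted against monocytes by a 2-fold ratio over genes of at least 20 CPM, 2 of the 8 members measured at that level were lower in control IgG macrophages, Ifi205 and Ifi209, against 4.0% of all genes. In the anti-CD3L1 library Ifi209 was lower, against 3.11% of genes. No member was higher in macrophages in either library, against 7.70% and 3.73% of genes. Ifi209 was at 115 CPM in control IgG monocytes and 47.1 CPM in macrophages, and at 102 and 47.5 CPM in the anti-CD3L1 library. Its macrophage level was therefore 0.409 times (0.364 to 0.459) and 0.468 times (0.438 to 0.50) the monocyte level. Ifi205, which has been linked to the control of inflammasome components in macrophages, was at 63.7 CPM in control IgG monocytes and 31.4 CPM in macrophages, close to the 2-fold limit, and at 101 and 60.2 CPM under anti-CD3L1. With classes taken from clusters of cells in place of marker gates, neither gene passed under control IgG.

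Neutrophils were nearly free of the family in the control IgG library. Each of the 8 members measured was over 2-fold lower there than in monocytes in both libraries, against 49.0% of genes under control IgG and 41.8% under anti-CD3L1. Under control IgG all 8 reached 20 CPM in monocytes alone. With neutrophil levels of 0.277 to 6.18 CPM that count was fixed by the filter, and the levels themselves describe the gap. Under anti-CD3L1 only Ifi207 and Mndal reached 20 CPM in neutrophils as well. There the calls of Ifi205 at 7.25 CPM, Ifi209 at 1.81 CPM and Ifi214 without a UMI were likewise fixed by the filter. In the control IgG neutrophils Ifi203 was at 1.48 CPM, or 0.871% of the monocyte level, Ifi204 at 1.94 CPM, or 0.837%, and Ifi207 at 5.35 CPM, or 1.08%. After each cell was thinned to 1000 UMIs, 1.77% of 4353 control IgG neutrophils held a UMI of any member (interval 1.40 to 2.21%), against 65.6% of monocytes (62.8 to 68.2%), 62.0% of macrophages (57.6 to 66.2%) and 21.0% of NK cells (15.1 to 27.9%). In the anti-CD3L1 library these shares were 6.44% (4.32 to 9.17%), 74.9% (72.8 to 76.8%), 67.6% (66.0 to 69.1%) and 28.6% (25.7 to 31.7%). Neutrophils with fewer UMIs, 85 and 22 in the libraries, were left out. Without it the shares were 6.94% and 13.6% of neutrophils and over 98% of monocytes and macrophages, and the neutrophil share is the background against which the others are read. The neutrophil gate leaves out cells with more than 2 of the monocyte or of the macrophage markers, and with neutrophils taken from clusters none of the 8 members was 2-fold lower than in monocytes in the anti-CD3L1 library, while all 8 were under control IgG.

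Aim2, a DNA sensor of the same family that was not among the 10, did not share this pattern. It stood at 43.4 CPM in control IgG neutrophils against 51.6 CPM in monocytes, and at 89.7 against 86.3 CPM in the anti-CD3L1 library, where the intervals overlapped. In NK cells Aim2 was at 144 and 134 CPM, which is 2.79 times (2.44 to 3.18) and 1.55 times (1.43 to 1.67) the monocyte level. Ifi202b, whose protein has HIN domains but no pyrin domain and counteracts Aim2, followed the myeloid members, at 248 and 318 CPM in monocytes, 192 and 238 CPM in macrophages, and 13.02 and 22.1 CPM in NK cells.

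NK cells split the family. Ifi204 was at 18.1 CPM in control IgG and 26.7 CPM in anti-CD3L1 NK cells, which is 7.84% and 9.50% of its monocyte levels. Ifi207 was at 12.1 and 40.3 CPM, or 2.43% and 6.20%, and Ifi211 at 11.2 and 12.4 CPM, or 8.84% and 8.58%. Ifi205 had 1 and 44 UMIs, or 0.729% and 4.67%. All 4 of these genes were below 10% of the monocyte level. Ifi203 by contrast was at 98.6 and 110 CPM, which is 58.1% and 48.0% of the monocyte level, and Mndal was at 139.5 and 124 CPM, which is 48.9% and 37.0%. Ifi208 was at 7.44 and 10.004 CPM, or 56.5% and 52.8% of monocytes. Ifi214 was at 29.3 and 20.01 CPM, which is 107% and 65.9%, while Ifi209, whose promoter is its near copy, was at 27.0 and 26.6 CPM, or 23.5% and 26.2%. The set of Ifi207, Ifi211 and Ifi205 printed above was thus low in NK cells together with Ifi204, and the pair with an identical printed stretch, Ifi203 and Mndal, was kept at similar shares, while the pair of Ifi214 and Ifi209 was parted.

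By the 2-fold count, 6 members were lower in control IgG NK cells than in monocytes (Ifi204, Ifi205, Ifi207, Ifi209, Ifi211 and Mndal), against 19.3% of genes, and 7 in the anti-CD3L1 library, where Ifi203 was added, against 18.6%. None was higher, against 26.3% and 23.3% of genes. Under control IgG, Ifi204, Ifi205, Ifi207 and Ifi211 reached 20 CPM in monocytes and not in NK cells, as did Ifi205 and Ifi211 under anti-CD3L1. For Ifi205, at 0.465 and 4.73 CPM in NK cells, passing downward was fixed by the filter. Some macrophage RNA was found among the NK cells, with C1qa at 14.9 and 43.1 CPM. Among NK cells without a UMI of Csf1r or of the C1q genes C1qa, C1qb and C1qc, which were 132 of 167 and 485 of 916 cells, Ifi207 stood at 1.07% and 1.36% of the monocyte level and Ifi204 at 6.65% and 6.53%. Ifi203 was at 56.2% and 45.7% and Mndal at 45.4% and 35.8% in the same cells, so the split was present there too. Leaving out these cells was chosen after the data had been seen.

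**Figure D2:**
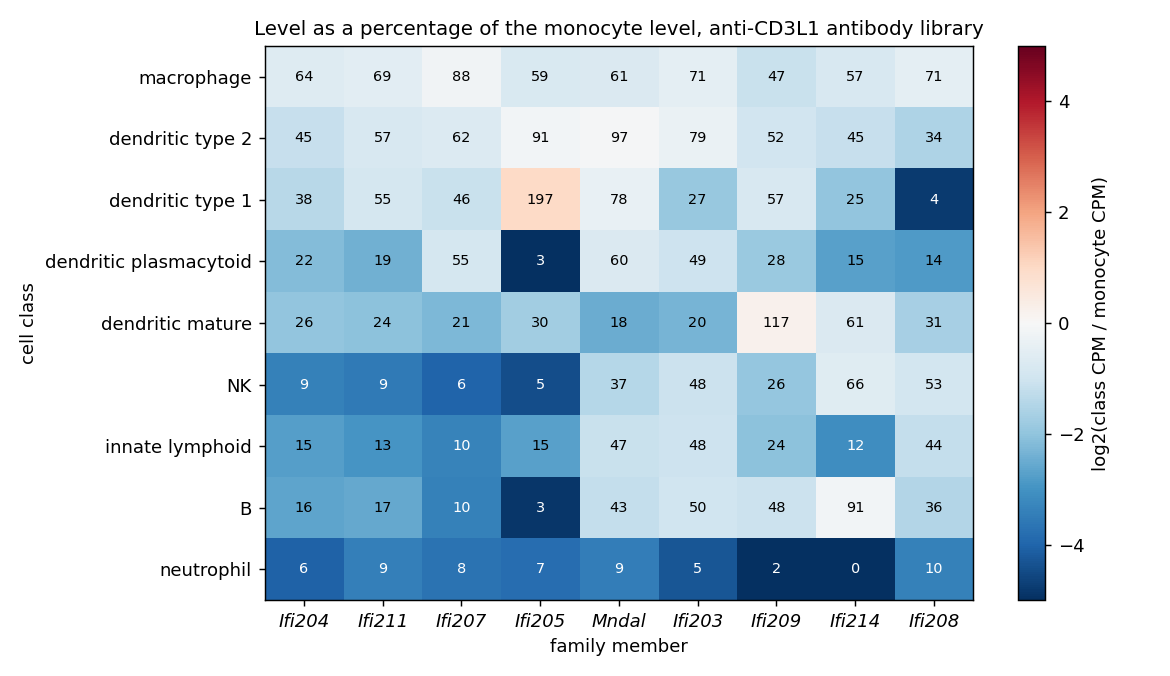
Level of 9 family members (columns) in 9 cell classes (rows) of the anti-CD3L1 library as a percentage of the level in monocytes of the same library, with the colour giving the log2 ratio of the CPM values. Ifi213 is left out for its few UMIs. Ifi205 in type 1 dendritic cells and Ifi209 in mature dendritic cells are the fields of the map above 100%, and Ifi204, Ifi211, Ifi207 and Ifi205 lie between 3.41% and 16.8% in NK, innate lymphoid and B cells.

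Dendritic cells, which could be described in the anti-CD3L1 library alone, set other members apart. The summed level was 1283 CPM in type 2 conventional dendritic cells (interval 1243 to 1323, 258 cells) and 1072 CPM in type 1 cells (1019 to 1127, 82 cells). It was 799 CPM in plasmacytoid cells (755 to 845, 175 cells) and 524 CPM in mature cells marked by Ccr7 (486 to 564, 109 cells). Of these cells, 34 of type 2, 9 of type 1, 34 plasmacytoid and 25 mature cells had passed several gates. Dendritic levels without such cells were not computed. B cells at 484 CPM (407 to 571, 58 cells) and innate lymphoid cells at 443 CPM (399.7 to 491, 127 cells) overlapped with each other and with the mature dendritic cells.

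Ifi205 was at 199.9 CPM in type 1 dendritic cells (177 to 224), against 101 CPM in monocytes (96.4 to 106), a ratio of 1.97 (1.74 to 2.24). The other members of at least 20 CPM in either class lay below their monocyte levels in type 1 cells. Mndal was at 77.8%, Ifi209 at 56.9%, Ifi211 at 54.6%, Ifi207 at 45.6%, Ifi204 at 37.9% and Ifi203 at 27.1%. Ifi214 was at 25.2%, from 11 UMIs. In plasmacytoid cells Ifi205 was at 2.64 CPM (0.718 to 6.75), while Ifi207 kept 356 CPM, or 54.7% of the monocyte level, and Mndal 201 CPM, or 60.2%. The plasmacytoid cells also held 104 CPM of C1qa, and the part of macrophage RNA in their levels was not tested. Ifi207 and Ifi205, similar in promoter and both low in NK cells, thus lay far apart in plasmacytoid and type 1 dendritic cells.

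Ifi209 was at 118 CPM in mature dendritic cells (101 to 138), 1.17 times the monocyte level (0.985 to 1.37). Ifi203, Ifi204, Ifi205, Ifi207, Ifi211 and Mndal were at 17.7% to 29.9% of their monocyte levels in the same cells. Ifi214 was at 60.9%. The mature cells held 253 CPM of C1qa, so some macrophage RNA was present among them, and its part in these levels was not tested. The few dendritic cells of the control IgG library, 4 of type 1 and 10 mature, held 23 UMIs of Ifi205 and 14 UMIs of Ifi209, which is 253 CPM (161 to 380) and 112 CPM (61.5 to 189), but these classes were too small to compare. The 17 plasmacytoid cells of that library, 5 of them past several gates, were likewise too few to compare. They held a sum of 1275.5 CPM (1129 to 1436), against 799 CPM under anti-CD3L1. They held Ifi207 at 603 CPM (503 to 716), above its monocyte level of 497 CPM. Their Ifi205 was at 18.7 CPM (5.09 to 47.8).

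B and innate lymphoid cells resembled NK cells in keeping more of Ifi203 and Mndal than of Ifi207. In B cells Ifi203 was at 49.8% and Mndal at 43.5% of the monocyte level. Ifi207 was at 9.57% there, from 18 UMIs, and Ifi205 at 3.41%, from 1 UMI. In innate lymphoid cells Ifi203 was at 48.4% and Mndal at 46.6%, against 9.97% for Ifi207 and 15.1% for Ifi205. Ifi209 was at 47.7% in B cells, from 14 UMIs, against 24.4% in innate lymphoid cells and 26.2% in NK cells. C1qa was at 131 CPM in these B cells and 254 CPM in these innate lymphoid cells, against 43.1 CPM in NK cells. The part of macrophage RNA in their levels was not tested. Ifi214 parted these classes, at 27.7 CPM in B cells (11.9 to 54.5) and 3.54 CPM in innate lymphoid cells (0.730 to 10.3). Ifi213 was near the limit of detection throughout, with 38 UMIs in all control IgG cells and 130 in all anti-CD3L1 cells.

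Across the 10 classes of the anti-CD3L1 library, on log2 values of CPM with a pseudocount of 10, Ifi204 varied with Ifi211 (Pearson r = 0.98) and with Ifi207 (r = 0.92), and Ifi203 with Mndal (r = 0.87). Over whole transcripts Ifi204 shares windows with Ifi211 and Ifi207, and Ifi203 with Mndal, and the part of shared reads in these values was not tested. Ifi205 and Ifi208 were little alike (r = 0.13). Classes of 1 library share its free RNA and the values describe these classes only. Among 4271 genes compared, a count that includes members, the other genes most like the members' mean pattern were Lamtor5, Trappc2l, Mrpl52, Ndufb1-ps and Lrpap1. Their r lay from 0.899 to 0.944 over 10 classes under anti-CD3L1 and from 0.9858 to 0.9999 over 4 classes under control IgG.

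The comparison of the treatments asked whether tumor myeloid cells carried more or less of the family under anti-CD3L1. In monocytes no member passed the 2-fold ratio upward or downward, against 3.78% and 2.37% of genes, and in macrophages none did either, against 1.90% and 2.51%. The summed level in anti-CD3L1 monocytes was 1.24 times that under control IgG (interval 1.22 to 1.26) and in macrophages 1.07 times (1.05 to 1.09). With classes from clusters the macrophage sum turned, to -0.11 on the log2 scale. On the log2 scale the median member differed by 0.30 in monocytes, where the median of all genes was 0.15, and by 0.12 in macrophages, where that of all genes was 0.03. The library differences in myeloid cells were thus small, and with 1 library per treatment they cannot be told apart from differences between libraries of 1 treatment.

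Ifi205 differed most among the members with at least 20 CPM in these classes. It was at 31.4 CPM in control IgG macrophages and 60.2 CPM in anti-CD3L1 macrophages, a ratio of 1.92 (1.68 to 2.20), and at 63.7 and 101 CPM in monocytes, a ratio of 1.59 (1.47 to 1.72). Ifi211, which shares most of its 3′ windows with Ifi205, had ratios of 1.06 (0.977 to 1.15) and 1.14 (1.08 to 1.21) in these classes. Ifi203 in monocytes was at 169.5 and 229 CPM, a ratio of 1.35 (1.28 to 1.42), and in macrophages at 160.0 and 163 CPM, a ratio of 1.02 (0.959 to 1.09). Ifi207 had a ratio of 1.31 (1.27 to 1.35) in monocytes and 1.01 (0.975 to 1.04) in macrophages. Ifi209 was the exception in monocytes, lower under anti-CD3L1 with a ratio of 0.883 (0.826 to 0.944), and when classes were taken from clusters its log2 ratio was 0.042 in place of -0.18. Ifi204 was at a ratio of 1.21 (1.16 to 1.27) in monocytes and 1.14 (1.07 to 1.21) in macrophages, and Mndal at 1.17 (1.12 to 1.22) and 1.11 (1.05 to 1.18).

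**Figure D3:**
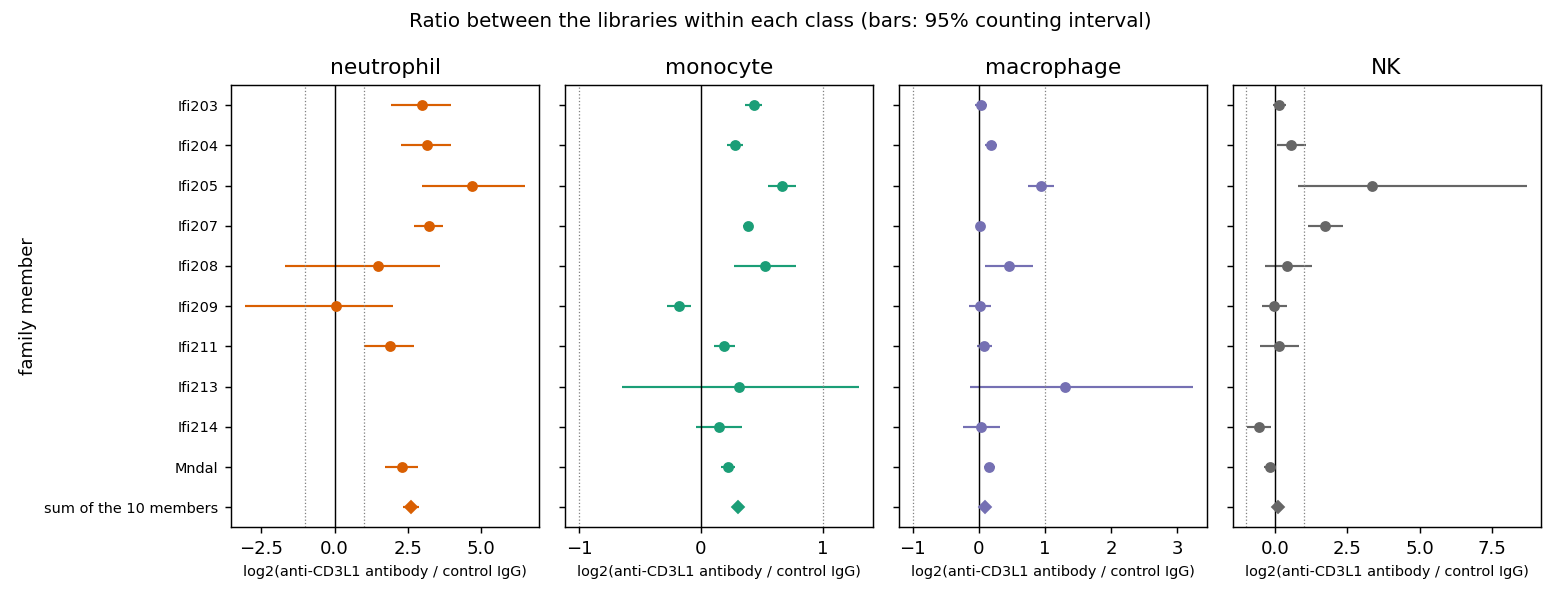
Log2 ratio of CPM in the anti-CD3L1 library over the control IgG library for each member and for their sum (rows) in 4 cell classes (panels, each with its own x axis), with exact 95% counting intervals as bars and dotted lines at 2-fold. A member with no UMI in 1 of the libraries of a class is not drawn. Most monocyte and macrophage points lie between 0 and 1, and the neutrophil points of 7 members lie above 1.

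In NK cells the sum was 344 CPM under control IgG and 375 CPM under anti-CD3L1, a ratio of 1.09 (1.01 to 1.18). With classes from clusters its log2 ratio was -0.10, without cells past a second gate -0.055 and without the cells of highest doublet score -0.065, in place of 0.13. Ifi207 was the single member past 2-fold upward, at 12.1 and 40.3 CPM with a ratio of 3.34 (2.24 to 5.18), against 2.03% of genes. It reached 20 CPM in the anti-CD3L1 library alone. None passed downward, against 2.0%. The median of all genes in NK cells was 0.13 on the log2 scale. The macrophage gene C1qa was at 14.9 CPM in control IgG NK cells and 43.1 CPM in anti-CD3L1 NK cells. Among NK cells without a C1q or Csf1r UMI, Ifi207 was at 5.33 and 8.83 CPM, a ratio of 1.66 (0.790 to 3.89), and the sum had a ratio of 1.03 (0.927 to 1.14). This filter was chosen after the data had been seen and does not remove free RNA. The part of macrophage RNA in the Ifi207 difference was not tested. Ifi214 was lower under anti-CD3L1, at 29.3 and 20.01 CPM with a ratio of 0.683 (0.511 to 0.924). In the cells without a C1q or Csf1r UMI the ratio was 0.683 with an interval of 0.462 to 1.02.

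Neutrophils showed the widest gap between the libraries. The sum was 21.8 CPM under control IgG and 134 CPM under anti-CD3L1, a ratio of 6.15 (5.08 to 7.41), from 473 and 148 UMIs. Ifi207 was at 5.35 and 49.8 CPM, a ratio of 9.31 (6.63 to 12.9), and Mndal at 6.18 and 30.8 CPM, a ratio of 4.98 (3.32 to 7.31). These were the only 2 members measured at 20 CPM in a library, and both reached it in the anti-CD3L1 library alone. From 5.35 and 6.18 CPM, reaching 20 CPM already meant passing the 2-fold ratio, so their passing was fixed by the filter. Of all genes, 23.2% passed higher and 3.67% lower. The median of all genes was itself 0.50 higher on the log2 scale in anti-CD3L1 neutrophils. Ifi204 had a ratio of 8.89 (4.88 to 15.6) and Ifi211 of 3.73 (1.99 to 6.53), whereas Ifi209, with 38 and 2 UMIs, had 1.03 (0.121 to 4.0). With neutrophils from clusters the sum differed by 4.10 on the log2 scale in place of 2.62.

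RNA of other cells moved with the neutrophil difference. C1qa was at 8.26 CPM in control IgG neutrophils and 52.5 CPM in anti-CD3L1 neutrophils, and free RNA held 522 and 1051 CPM of the members. Without the neutrophils that held a C1q or Csf1r UMI, which were 1200 of 4438 and 164 of 457, the sum was 20.6 and 124 CPM, a ratio of 6.03 (4.69 to 7.68). That filter, chosen after the data had been seen, does not remove free RNA, and a shallow cell can lack these UMIs by counting alone. Csf1r itself was at 62.9 and 69.8 CPM in the neutrophils. The part of RNA from other cells in the difference was not tested. Of the type I interferon list, 21 of 28 genes measured were past 2-fold higher in the same cells, among them Ifit3b at 7.33 and 84.3 CPM and Rsad2 at 346 and 1980.3 CPM, against 23.2% of all genes, with a list median of 1.24 on the log2 scale. For Ifit3b, and for Ifit3 at 8.39 CPM under control IgG, reaching 20 CPM already meant passing the 2-fold ratio, so these calls were fixed by the filter. Cmpk2 at 13.2 CPM and Bst2 at 15.3 CPM under control IgG also reached 20 CPM in the anti-CD3L1 library alone. How many more of the 21 did so was not counted.

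Over the cells of the 4 classes together, the sum of the members was 752 CPM under control IgG and 1329 CPM under anti-CD3L1, a ratio of 1.77. With the control IgG level of each class and the anti-CD3L1 makeup, in which neutrophils gave 1.65% in place of 45.3% of the UMIs of these 4 classes and macrophages 60.3% in place of 15.8%, the sum would be 1182 CPM, a ratio of 1.57. With the anti-CD3L1 levels and the control IgG makeup it would be 943 CPM, a ratio of 1.25. The members differed in this respect. For Ifi207 the makeup alone gave a ratio of 1.76 and the levels alone 1.28, for Ifi205 1.27 and 1.77, and for Ifi209 1.22 and 0.907. Cells without a class and the smaller classes were left out of these values. Over all cells the sum was 667 CPM under control IgG and 1293 CPM under anti-CD3L1, a ratio of 1.94 (1.92 to 1.96).

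Within a class, the members were read against a list of 33 type I interferon-stimulated genes that holds none of them. Cells in the top 10% of a class by the summed list had 3.01 times the summed member level of the other cells in control IgG macrophages (51 cells) and 2.54 times in anti-CD3L1 macrophages (373 cells). In monocytes the ratios were 4.14 (122 cells) and 2.93 (185 cells). The split is a range of a score and not a cell type, with 21 to 221 cells of these classes within 10% of the cutoff.

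The members followed the list to different degrees. Ifi207 followed it least in all 4 sets of cells, with 1034 CPM in the top 10% and 447 CPM in the other control IgG monocytes, a ratio of 2.31 (2.18 to 2.45), and ratios of 1.80 (1.65 to 1.96) in control IgG macrophages, 1.96 (1.86 to 2.06) in anti-CD3L1 monocytes and 1.66 (1.60 to 1.73) in anti-CD3L1 macrophages. Ifi214 and Ifi208 lay toward the other end, with Ifi213 set aside for its few UMIs. Ifi214 was at 174 and 13.7 CPM in control IgG monocytes, a ratio of 12.7 (10.5 to 15.4), and ratios of 15.0 (10.4 to 21.8), 9.15 (7.64 to 10.97) and 7.53 (6.46 to 8.77) in the other sets. Ifi208 had ratios of 6.23 to 12.1, with intervals that overlapped those of Ifi214 in all 4 sets, and Ifi209 had ratios of 5.42 to 8.60. Ifi203, Ifi204, Ifi205, Ifi211 and Mndal had ratios from 2.59 to 6.38. The intervals of Ifi207 and of Ifi214 did not overlap in any of the 4 sets. Aim2 had ratios of 1.48 to 1.83.

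**Figure D4:**
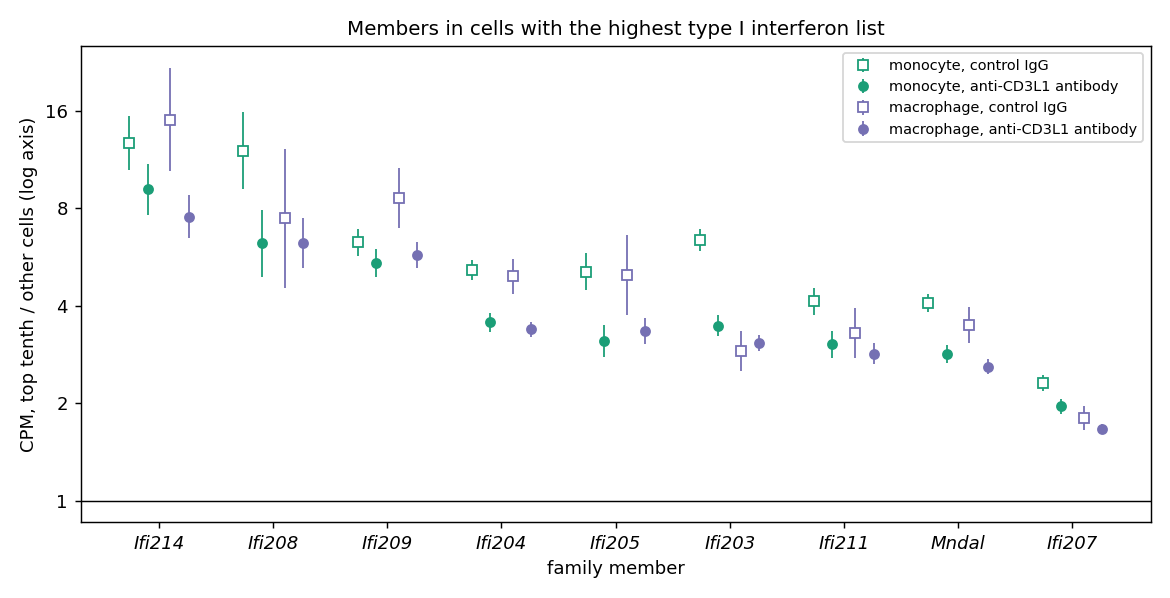
Ratio of each member's CPM in the top 10% of cells by the type I interferon list over that in the other cells (log axis), in monocytes and macrophages of the control IgG library (open squares) and the anti-CD3L1 library (filled circles), with exact 95% counting intervals as bars. Members are ordered from Ifi214, with ratios of 7.53 to 15.0, to Ifi207, with ratios of 1.66 to 2.31, and Ifi213 is left out for its few UMIs.

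In neutrophils the ratios of the libraries lay apart. In control IgG neutrophils the top 10% by the list (444 cells) had 3.59 times the summed member level of the others (2.91 to 4.41). In anti-CD3L1 neutrophils (46 cells) the ratio was 1.15 (0.651 to 1.91), from 17 and 131 UMIs, while the list itself differed 5.99 times. In anti-CD3L1 NK cells the top 10% by the list had 4.23 times the summed member level of the others, with Ifi207 at 11.1 times (8.96 to 13.7), but Csf1r was at 75.4 CPM in these 92 cells and 16.2 CPM in the others, and the part of macrophage RNA in that ratio was not tested.

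Outside neutrophils few genes of the type I interferon list passed 2-fold, which for so few genes is near the shares of all genes. The list medians lay above those of all genes. In monocytes none of the 31 type I interferon-stimulated genes measured was past 2-fold higher, against 3.78% of all genes. Only Oas1a, at 98.3 and 47.3 CPM, was lower, against 2.37%. The list median was 0.33 on the log2 scale, where the median of all genes was 0.15. In macrophages none of 31 passed in either direction, against 1.90% of all genes higher and 2.51% lower. The list median was 0.26 there, where that of all genes was 0.03. In NK cells 1 of 23 passed upward, Ifit2, against 2.03% of all genes, with a list median of 0.23 where that of all genes was 0.13. Ifit2 was at 9.76 and 22.8 CPM, so its passing was fixed by the filter of 20 CPM. Of the genes that respond to interferon-gamma, 5 of 16 measured were past 2-fold higher in monocytes (Cxcl9, Ciita, Irf8, Gbp4 and Irf1), against 3.78% of all genes, and 4 of 16 in macrophages (Iigp1, Cxcl9, Ciita and Gbp2), against 1.90%. Cxcl9, a chemokine that draws T and NK cells, was at 22.4 and 141 CPM in monocytes, and 3 of 13 were past 2-fold lower in NK cells (Gbp3, Gbp5 and Cxcl10), against 2.0% of all genes. In neutrophils 3 of 14 passed upward, a share near the 23.2% of all genes. Ciita at 9.46 CPM and Gbp4 at 14.2 CPM in control IgG monocytes reached 20 CPM under anti-CD3L1 alone. In macrophages the same held for Iigp1 at 8.75 CPM and Ciita at 17.4 CPM under control IgG. For Ciita in monocytes and Iigp1 in macrophages, reaching 20 CPM already meant passing the 2-fold ratio, so these calls were fixed by the filter.

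Of the other DNA sensing genes, the cytosolic sensor Cgas passed upward in monocytes, as 1 of 10 measured, against 3.78% of all genes. Cgas was at 10.3 and 21.1 CPM, so it reached 20 CPM in the anti-CD3L1 library alone. None of 9 passed in macrophages, against 1.90% of all genes higher and 2.51% lower, or of 10 in NK cells, against 2.03% and 2.0%. In neutrophils 2 of 6 passed, Zbp1, a sensor of nucleic acids in the Z form, at 43.6 and 134 CPM, and Aim2, at 43.4 and 89.7 CPM, where 23.2% of all genes passed. Of the inflammasome genes none of 7 measured passed in neutrophils, against 23.2% of all genes higher and 3.67% lower. None of 9 passed in monocytes, against 3.78% and 2.37%, or of 9 in macrophages, against 1.90% and 2.51%. For so few genes, none passing is near these shares in monocytes and macrophages. In NK cells 1 of 5 was lower, Il1b, at 576 and 101 CPM, against 2.0% of all genes. The neutrophil gene S100a8 was at 4348 and 14.2 CPM in the same NK cells, and its part in the Il1b difference was not tested. None of the interferon ligands and receptors passed in any of the 4 classes, with 6 measured in neutrophils, monocytes and macrophages and 7 in NK cells. Beside the shares of all genes given above, this says little for so few genes outside neutrophils.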

How the data were processed

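RNA was measured in 2 libraries of CD45-sorted cells, 1 for control IgG and 1 for anti-CD3L1. The values the authors deposited are raw UMI counts for every barcode, empty droplets included, which the submitters' notes trace to Cell Ranger 7.1.0 and the build GRCm39, with Seurat 5.1.0 named for later steps. The authors' table of macrophage gene comparisons was not used. The control IgG files held 74850604 UMIs and the anti-CD3L1 files 108246719 UMIs.

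Barcodes were kept with at least 500 UMIs, over 200 and under 6000 genes and under 5% mitochondrial UMIs. A cell entered a class when it held a UMI of enough markers of that class, for example at least 4 of 7 for neutrophils, with few of another, and a cell past several gates went to the class with the largest share of its markers found. Doublets were not removed in the values reported, and leaving out 586 and 1016 cells with the highest Scrublet scores was an alternative. UMIs were summed over a class and divided by all its UMIs (CPM). Intervals are exact at 95%, Poisson for CPM, conditional binomial for ratios and binomial for shares, and cover counting error only. Free RNA was read from barcodes of 10 to 100 UMIs. Classes needed 50 cells, and a gene counted as higher or lower past 2-fold if it had at least 20 CPM on either side. Medians over members set a count of 0 at 3 counts. No p-value was computed. The members and lists were chosen with earlier results of these data known. Named genes are the members, others of the family, up to 5 genes of a list past 2-fold in order of size, and the 5 genes most like the members across classes. Of the type I interferon list, 2 genes were not found.

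On simulated counts of 5616 genes for macrophages with 200 changed 3-fold, 100% of these and 0% of the others passed 2-fold, and intervals covered the truth in 94% of the former and 95.0% of the latter. The counts were drawn with counting error alone, so this coverage was built in. It does not speak to spread between cells or libraries, or to classes with few UMIs. Promoters and transcripts came from RefSeq GRCm38.p6 and GENCODE M21. The build behind the counts, named GRCm39 in the notes, could not be settled from the files, so sequences were joined by symbol or gene identifier and not by coordinates. Alternatives changed the cell filters, classes, doublets, scaling, free RNA and thresholds. Software was scanpy 1.11.5, biopython 1.88, scipy 1.17.1, matplotlib 3.10.9, pandas 2.3.3 and numpy 2.4.6 under Python 3.11.15.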

Additional observations from a re-analysis of the deposited data

How the results depend on the processing

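With 1 library per treatment, no library could be left out. No paired analysis was possible because each treatment has 1 library and no test was made. Over all alternatives the log2 ratio of the members' sum between the libraries ranged from 2.20 to 4.10 in neutrophils, from 0.18 to 0.44 in monocytes, from -0.11 to 0.13 in macrophages and from -0.10 to 0.20 in NK cells, against 2.62, 0.31, 0.10 and 0.13 as reported, so the signs for macrophages and NK cells depend on how cells are classed. Of 439 values of single members 376 stayed within the counting interval of the reported ratio, 62 moved outside it and 1 reversed. That interval is wide for members with few UMIs, so staying within it does not mean staying close. Of 12 values for each sum, 8 moved outside it in neutrophils, 7 in monocytes and 3 in macrophages. The sign reversed in 1 of them in macrophages and 3 in NK cells.

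Classes from clusters gave the largest changes, with sums of 4.10 in neutrophils, 0.44 in monocytes, -0.11 in macrophages and -0.10 in NK cells and 0.042 for Ifi209 in monocytes. The counts past 2-fold higher were then 7 in neutrophils, 1 in macrophages and 0 in NK cells, against 39.9%, 2.89% and 1.6% of genes. With these classes 0 members were lower than in monocytes in control IgG macrophages or in anti-CD3L1 neutrophils. Cells with at most 2% mitochondrial UMIs gave 2.21 in neutrophils, with 1 member higher against 20.9% of genes, and 0.24 in monocytes. Among these cells 1 member was lower in control IgG macrophages than in monocytes. Without cells past a second gate the NK sum was -0.055. Without the highest Scrublet scores the sums were 2.20, 0.27, 0.066 and -0.065. Then 1 member was higher in neutrophils and 0 in NK cells, against 19.8% and 1.77% of genes. Means of per-cell CPM gave 2.34 in neutrophils and 0.28 in monocytes. With free RNA subtracted the sums were 2.94 in neutrophils and 0.063 in macrophages, with 1 member lower in control IgG macrophages than in monocytes. Without the top 10% of cells by the interferon list they were 2.91, 0.41 and 0.13 in neutrophils, monocytes and macrophages. Then 1 member was higher in macrophages and 0 in NK cells, against 1.94% and 2.06% of genes. Median-ratio scaling gave 2.24 and 0.18 in neutrophils and monocytes. Leaving out the 50 most abundant genes gave 2.30 and 0.22, with 4 members higher in neutrophils, against 15.4% of genes.

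Past 1.5-fold 1 member was higher in monocytes and 1 in macrophages, against 11.7% and 6.4% of genes. By intervals that exclude a ratio of 1, 6 were higher and 1 lower in monocytes, against 52.1% and 22.5% of genes. By the same rule 3 were higher in macrophages, against 35.0%, and 2 higher and 1 lower in NK cells, against 30.1% and 13.4%. Among genes of at least 5 CPM, 6 members were higher in neutrophils, against 31.9% of genes. Without NK cells that held a C1q or Csf1r UMI, an alternative chosen after seeing the data, 0 were higher in NK cells, against 2.03% of genes. The cause of these changes was not tested.

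The share of cells with a UMI of any member depends on depth. Thinned to 500 UMIs it was 0.744% and 4.16% in neutrophils under control IgG and anti-CD3L1, 46.7% and 56.5% in monocytes, 42.7% and 44.3% in macrophages, and 13.8% and 13.5% in NK cells. Unthinned it was 6.94% and 13.6%, 99.3% and 99.6%, 98.8% and 99.2%, and 80.2% and 77.4%. Ifi213, and most members in anti-CD3L1 neutrophils, rest on few UMIs, so differences there were not detectable at this depth unless large.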
